A study of Homo sapiens with 60 samples.

Results

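HepG2 cells, an established human hepatocellular carcinoma line, were compared after 24 h with a 70% ethanol extract of Aucklandiae Radix at 280 ug/mL and at 11.2 ug/mL. The comparison takes 4 of the 60 libraries of the series, 2 at each dose, chosen by the extract and dose in their labels, and it is described across all measured genes. Another 2 libraries at 56 ug/mL show the dose between them. All 6 libraries carry BatchD in their titles and the same set number, were grown in the same medium and differ, per the labels, in dose and replicate number alone. The wider series tested 8 extracts of herbs or herbal formulas and a DMSO vehicle, which has 3 libraries and a set label of its own. The labels put the vehicle at 0.1% DMSO and the design text at 2%. The high dose was, per the design text, the concentration that gave 20% inhibition, and the other doses were dilutions of 5 and 25 times, so the extract's own effect and the inhibition cannot be told apart. A single cell line stands for the liver here, and nothing in the labels ties a replicate to a culture of its own. The p-values reflect a spread between replicate libraries, which may be technical. It was estimated together over 57 libraries of the series, most of them from other extracts.

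Aucklandiae Radix is the dried root of a thistle relative and is known for sesquiterpene lactones such as costunolide and dehydrocostus lactone, compounds with a group that can react with protein thiols. The composition of the extract was not measured here. Cells meet damaged or thiol-modified protein with several linked programs. Heat shock factor 1 (HSF1) drives chaperone genes through heat shock elements, NRF2 is released from its thiol sensor KEAP1 and drives antioxidant genes through antioxidant response elements, and ATF4 is translated when the translation factor eIF2 is phosphorylated and drives amino acid supply and stress genes. Hepatocytes are known for secreting plasma proteins, building lipoproteins and making bile acids under a network of factors that includes HNF4A and the nuclear receptor FXR.

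Each library held 22.2 M to 26.7 M counts. Mitochondrially encoded genes held 8.02% and 8.17% of counts at 280 ug/mL, 11.3% and 12.3% at 56 ug/mL and 12.4% and 14.0% at 11.2 ug/mL. The link of level to transcript GC content moved with dose too: log2 levels had slopes of -0.0632 and -0.091 per 10 percentage points of GC in the high-dose libraries and of 0.00357 and 0.0163 in the low-dose ones, relative to the mean of all libraries. The part of either in the results was not tested beyond a fit without the GC trend. Of 10 hepatocyte markers, none was at 0 in any of the 6 libraries, and their summed level was 21770 and 22250 CPM (counts scaled to a common library size) at 280 ug/mL against 48000 and 47990 at 11.2 ug/mL. Most of that drop was in APOB, at 27090 and 26850 CPM at 11.2 ug/mL and 6038 and 6988 CPM at 280 ug/mL, and the list median was -0.44, with 2 of 10 markers 2-fold lower. Markers of blood cells summed to 697 and 725 CPM against 1193 and 1225, but CD3E, HBB and PF4 were at 0 in all 4 libraries and PTPRC in 3 of them, with LYZ the leading gene. Stromal markers summed to 28.6 and 33.9 CPM against 63.4 and 65.8 with COL1A2, DCN and FAP at 0, endothelial ones to 5.46 and 6.47 against 4.36 and 4.73 with KDR, TEK, CLEC4G and EMCN at 0, and lung and gut ones to 75.3 and 81.1 against 313 and 316, with VIL1 leading and SCGB1A1 and KRT5 at 0. The part of these markers in the results was not tested. The labels name HepG2 cells only, so these sums are levels of the marker transcripts in that culture. In bulk RNA, fewer cells with a transcript and less of it per cell cannot be told apart.

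Most of the transcriptome differed between the doses. The edgeR quasi-likelihood test, with a Benjamini-Hochberg adjusted p under 0.05, called 11787 of 16982 tested genes (69.4%), 5765 higher (33.9%) and 6022 lower (35.5%) at 280 ug/mL. At 2-fold or more, 2427 genes were higher (14.3%) and 2294 lower (13.5%), and these shares are the background for the counts of list members given below. The median log2 fold change over all tested genes was -0.015, so fold changes are relative to a transcriptome scaled to no net change. The tails were uneven: 351 called genes were at least 8-fold higher and 162 at least 8-fold lower. Protein-coding genes were 2-fold higher in 12.7% and 2-fold lower in 13.9% of cases, and the other gene types in 19.8% and 12.0%. In the medium comparison, 56 against 11.2 ug/mL, 20 genes were 2-fold higher (0.118%) and 15 were 2-fold lower (0.0883%). The medium and the high comparison share the low-dose libraries, so their values are only set side by side. Of 11230 tested genes that reached 5 CPM at any dose, 40.3% had both 280 ug/mL libraries above the 4 others. Lack of overlap between doses, given for single genes below, was thus common, and its share among falling genes is not given.

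**Figure D1:**
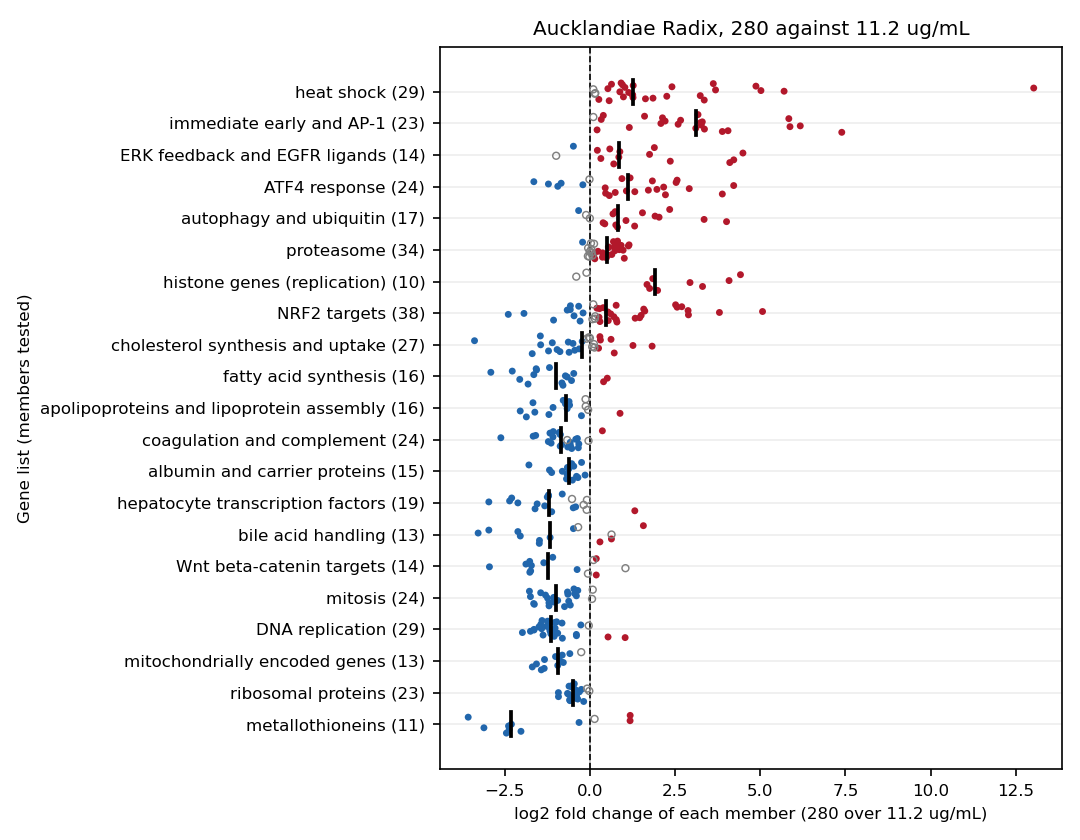
Log2 fold change of every tested member of 21 gene lists, 280 over 11.2 ug/mL (x axis), with the number tested beside each list name (y axis). Filled red points were called higher and filled blue points lower, open points were not called, and black bars are list medians, which run from -2.31 for metallothioneins to 3.11 for immediate early genes.

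Chaperone genes rose, and HSPA6 among them had the highest fitted fold change of the genes named here. 26 of 29 tested heat shock genes rose, none fell, and 18 rose at 2-fold or more, with a median log2 fold change of 1.25. The promoters of 5 of them are shown because their heat shock elements, the sites that HSF1 binds, vary in number. The element was searched as GAANNTTC or TTCNNGAA, each of which reads the same on both strands, and matches can overlap each other. Each window holds the 200 bases before the start of the gene (RefSeq, GRCh38.p14), 5′ to 3′ on the gene's own strand, with matches in capitals. The windows lie at chr1:161524340-161524539 on the plus strand (HSPA6, 3 matches), chr6:31815343-31815542 on the plus strand (HSPA1A, 1 match), chr11:90223050-90223249 on the minus strand (CHORDC1, 5 matches), chr19:14518398-14518597 on the minus strand (DNAJB1, 2 matches) and chr14:102087045-102087244 on the minus strand (HSP90AA1, 3 matches).
HSPA6: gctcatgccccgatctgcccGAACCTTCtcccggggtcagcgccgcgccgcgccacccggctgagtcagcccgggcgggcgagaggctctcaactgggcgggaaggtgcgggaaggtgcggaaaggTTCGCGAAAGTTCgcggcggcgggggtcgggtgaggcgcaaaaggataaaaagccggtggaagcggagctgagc
HSPA1A: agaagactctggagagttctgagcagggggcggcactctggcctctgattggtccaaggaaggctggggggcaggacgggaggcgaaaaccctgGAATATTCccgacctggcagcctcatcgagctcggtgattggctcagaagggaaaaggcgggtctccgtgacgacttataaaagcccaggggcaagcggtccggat
CHORDC1: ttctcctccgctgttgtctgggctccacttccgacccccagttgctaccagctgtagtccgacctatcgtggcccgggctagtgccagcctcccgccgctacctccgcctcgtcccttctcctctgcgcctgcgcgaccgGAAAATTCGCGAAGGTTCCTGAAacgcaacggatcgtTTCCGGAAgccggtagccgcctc
DNAJB1: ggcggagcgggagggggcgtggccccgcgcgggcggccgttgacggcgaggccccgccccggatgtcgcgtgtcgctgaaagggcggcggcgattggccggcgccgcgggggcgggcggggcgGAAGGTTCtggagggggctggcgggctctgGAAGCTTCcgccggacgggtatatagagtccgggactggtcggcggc
HSP90AA1: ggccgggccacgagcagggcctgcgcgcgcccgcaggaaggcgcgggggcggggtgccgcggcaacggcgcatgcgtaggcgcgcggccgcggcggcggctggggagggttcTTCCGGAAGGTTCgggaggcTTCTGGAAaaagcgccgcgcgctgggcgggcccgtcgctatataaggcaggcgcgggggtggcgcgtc
In windows of 300 bases, 250 before and 50 after the start, the element was found for 18 of the 26 heat shock genes with a promoter in the table (69.2%), for 13 of 16 of those that rose 2-fold (81.2%), and for 16.2% of all 27305 genes. It was found for 14.2% of all genes that rose 2-fold and 13.3% of those that fell 2-fold, against 13.7% of tested genes. A match is a description of letters and not a measured site.

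HSPA6, an inducible HSP70 chaperone (chr1:161524540-161526910, GRCh38), was at 0 and 0.0415 CPM at 11.2 ug/mL, 0.263 and 0.0438 CPM at 56 ug/mL and 239.9 and 178 CPM at 280 ug/mL (replicates 2 and 3 in this order, as in all pairs below). It was at 0 in vehicle. The low-dose libraries held 1 count in total and the high-dose ones 10043. Its ratio was 10500 (95% exact counting interval 1880 to 414000, which covers counting error only), and fitted folds of such genes depend on the prior count. HSPA1A, the major inducible HSP70, stood at 75.9 and 75.6 CPM at 11.2 ug/mL, 65.0 and 68.5 CPM at 56 ug/mL and 4494 and 3375 CPM at 280 ug/mL, against a vehicle mean of 140.0 CPM. The high-dose libraries lay far above the 4 others, with the medium dose just below the low one, and the log2 fold change was 5.70 ± 0.14 (SE, edgeR adjusted p = 1.86e-34), 52.0-fold. Its near-identical copy HSPA1B went from 134 and 136 to 5113 and 3634 CPM (5.02 ± 0.12), and the split of reads between the copies is uncertain.

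The partners of HSP70 rose with it. HSPH1, an HSP110 chaperone and exchange factor of HSP70, was at 149.8 and 152 CPM at 11.2 ug/mL and 2088 and 1618 CPM at 280 ug/mL (3.62 ± 0.07). BAG3, a co-chaperone that hands HSP70 clients to autophagy, was at 33.5 and 33.9 CPM at 11.2 ug/mL and 389 and 300.5 CPM at 280 ug/mL (3.35 ± 0.09). The HSP40 genes DNAJB1 and DNAJB4, which feed clients to HSP70, rose by 2.25 and 3.24 on the log2 scale, and all 5 HSP40 genes in the list rose. All 5 small heat shock and BAG3 genes rose 2-fold or more, among them HSPB8 from 0.769 and 0.788 to 26.4 and 19.5 CPM (4.87) and HSPB1 from 48.8 and 50.5 to 284 and 242 CPM (2.41). The 7 genes of the HSP90 machine rose with a smaller median of 0.91: HSP90AA1, the inducible HSP90, went from 2070 and 2021 to 4731 and 4261 CPM (1.14), and HSP90AB1, the constitutive one, rose by 0.88. The mitochondrial chaperonin pair HSPD1 and HSPE1, which share a promoter region, rose by 0.96 and 0.63. HSPA4, an HSP110 relative, did not pass the test (0.10). Transcripts of the factors themselves did not pass it either: HSF1 was at 70.4 and 74.3 CPM at 11.2 ug/mL and 79.6 and 80.1 CPM at 280 ug/mL (0.14, adjusted p = 0.105) and HSF2 had a log2 fold change of 0.15. HSF1 was called under 7 of the alternative settings, at 0.14 to 0.28, and HSF2 under 4, at 0.19 to 0.29. At 56 ug/mL the list median was -0.03 and no member was called at 2-fold.

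**Figure D2:**
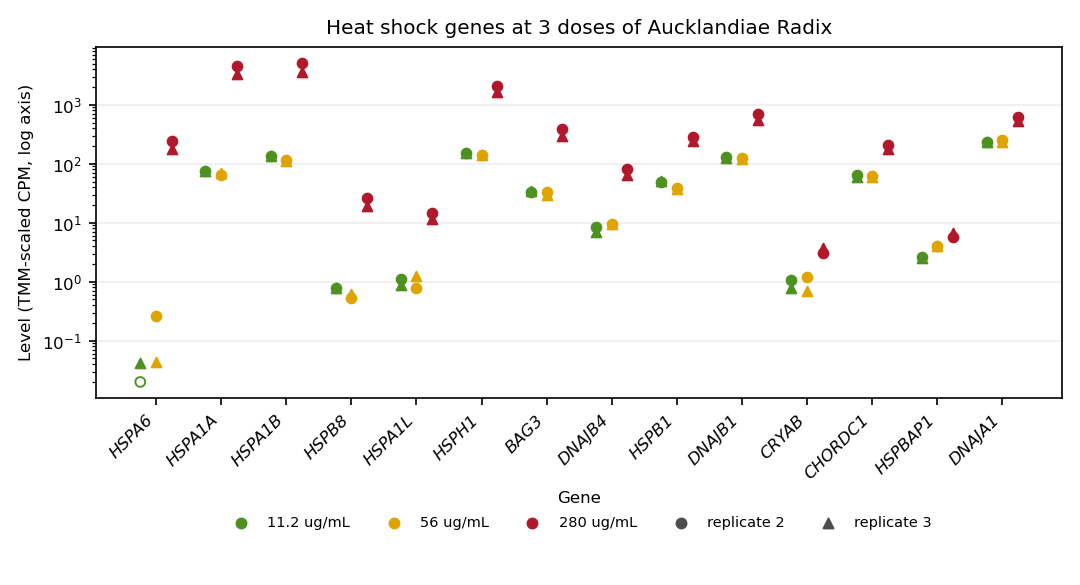
Level of 14 heat shock genes (TMM-scaled CPM, log axis) in each library at 11.2, 56 and 280 ug/mL, circles for replicate 2 and triangles for replicate 3, with an open circle at the axis floor for 0 counts. The 14 were picked as the reported list members with the highest log2 fold changes, 280 over 11.2 ug/mL. That both 280 ug/mL libraries lie above those at 11.2 ug/mL for each gene shown thus follows largely from the choice. Those at 11.2 and 56 ug/mL lie close together, as with HSPA1A at 75.9 and 75.6 against 65.0 and 68.5 CPM.

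Immediate early genes, the fast targets of growth factor and stress kinases, had the highest median of the lists plotted above, 3.11. 22 of 23 rose, 19 of them 2-fold or more, and none fell. FOS, a subunit of the AP-1 transcription factor, was at 0.769 and 0.456 CPM at 11.2 ug/mL, 0.307 and 0.351 CPM at 56 ug/mL and 44.9 and 28.0 CPM at 280 ug/mL, with a vehicle mean of 0.451 CPM. Its high-dose libraries lay apart from each other, and both were far above the other 4 (5.87 ± 0.28, edgeR adjusted p = 6.1e-23). FOSB went from 0.769 and 0.456 to 53.5 and 36.4 CPM (6.17 ± 0.24). All 8 AP-1 subunits in the list rose, among them FOSL1 from 14.1 and 13.7 to 137 and 131 CPM, JUN from 29.4 and 28.0 to 135 and 129.8 CPM and ATF3 from 3.00 and 2.99 to 50.0 and 38.6 CPM. ARC, known from neurons as an activity-regulated gene, went from 0.0769 and 0.124 to 22.4 and 12.8 CPM (7.39 ± 0.47). KLF4, a zinc finger factor, went from 0.423 and 0.249 to 22.4 and 17.0 CPM, and CCN1, a matrix protein, from 12.1 and 12.0 to 219 and 181 CPM. The exception was MYC, at 176 and 178 CPM against 183 and 197 CPM, which did not pass the test (0.10).

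Feedback inhibitors of the ERK kinases rose as well, all 8 that were tested. DUSP1 and DUSP5, phosphatases that switch off MAP kinases, went from 6.72 and 6.06 to 121 and 99.2 CPM (4.10) and from 2.38 and 1.33 to 39.6 and 30.4 CPM (4.22). HBEGF, a ligand of the EGF receptor, went from 2.00 and 2.28 to 53.7 and 42.6 CPM (4.49 ± 0.16), while TGFA, another ligand, fell by 0.49 and EREG at under 1 CPM did not pass the test. Cytokine genes split. IL11 and LIF, cytokines of the IL-6 family, rose from 2.58 and 1.83 to 27.1 and 26.2 CPM and from 6.61 and 7.43 to 55.4 and 48.4 CPM, and IL6R, a receptor of that family, rose by 2.13. CCL26, an eosinophil chemokine, had 0 counts at the low and medium doses and in vehicle and 313 counts in the high-dose libraries, 6.97 and 6.04 CPM, at least 54.4-fold higher when a floor of 3 counts is taken for each library. CCL20 fell from 11.8 and 12.6 to 3.80 and 3.43 CPM (-1.76). Of 14 genes on the NF-kB and chemokine list, 7 rose and 6 fell, with the inhibitor NFKBIA not called (-0.09).

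NRF2 targets moved in both directions. Of 38 tested, 24 rose and 10 fell, 12 and 3 of them 2-fold or more, with a median of 0.46. By role, 5 of 5 thioredoxin system genes rose, and 4 of 5 glutathione supply genes rose while 1, GPX2, fell. GCLM, the modifier subunit of the enzyme that starts glutathione synthesis, is shown with its promoter window (chr1:93909431-93909630 on the minus strand, 200 bases before the start, RefSeq GRCh38.p14), because it holds a single antioxidant response element. The element was searched as TGACNNNGC on both strands, and the capitals mark the match, which lies on the opposite strand.
GCLM: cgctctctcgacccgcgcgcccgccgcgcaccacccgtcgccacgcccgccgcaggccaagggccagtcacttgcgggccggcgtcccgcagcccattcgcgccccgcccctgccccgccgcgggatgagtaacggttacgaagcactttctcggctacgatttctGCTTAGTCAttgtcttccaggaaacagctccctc
It was found for 8 of the 30 NRF2 list genes with a promoter (26.7%), for 19.3% of tested genes and for 16.1% of all genes in the table. Among all genes that rose 2-fold the share was 20.7%, and among those that fell 2-fold 17.9%, both near that of tested genes.

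GCLM was at 41.5 and 41.0 CPM at 11.2 ug/mL, 53.5 and 56.6 CPM at 56 ug/mL and 313 and 299 CPM at 280 ug/mL, and its vehicle mean was 32.3 CPM. The doses did not overlap, the rise from 11.2 to 280 ug/mL was 2.89 ± 0.07, and the value at 56 ug/mL was 0.42 (edgeR adjusted p = 4.56e-05). HMOX1, heme oxygenase 1, was at 49.2 and 48.6 CPM at 11.2 ug/mL, 75.1 and 67.3 CPM at 56 ug/mL and 703 and 659 CPM at 280 ug/mL (3.80 ± 0.06). TXNRD1, thioredoxin reductase, was at 208 and 209.5 CPM at 11.2 ug/mL, 283 and 284 CPM at 56 ug/mL and 1231 and 1152 CPM at 280 ug/mL (2.51 ± 0.05), and SRXN1, which repairs oxidised peroxiredoxins, rose by 2.69. The cystine carrier SLC7A11, which is on the ATF4 list too, went from 55.4 and 57.1 to 351 and 310.5 CPM (2.56). The small MAF genes, whose proteins pair with NRF2 on DNA, rose: MAFF from 4.88 and 5.81 to 196 and 162 CPM (5.07 ± 0.14), MAFK by 2.88 and MAFG by 1.61. KEAP1 and the repressor BACH1 rose by 0.53 and 1.32, and NFE2L2, which encodes NRF2, fell from 252 and 238 to 150 and 158 CPM (-0.67).

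Another set of NRF2 targets was higher at 56 than at 280 ug/mL. GSTA1, a glutathione transferase of hepatocytes, was at 72.9 and 70.8 CPM at 11.2 ug/mL, 186 and 175 CPM at 56 ug/mL and 16.4 and 21.1 CPM at 280 ug/mL. The medium dose lay above and the high dose below the low dose, without overlap, with log2 fold changes of 1.33 ± 0.08 (edgeR adjusted p = 8.91e-17) and -1.94 ± 0.10 (adjusted p = 9.65e-23). AKR1C2, an aldo-keto reductase, was at 474 and 455 CPM at 11.2 ug/mL, 1051 and 1011 CPM at 56 ug/mL and 429 and 547 CPM at 280 ug/mL, a rise of 1.15 ± 0.07 at the medium dose and 0.07, not past the test, at the high dose. NQO1, quinone reductase 1, fell at the high dose from 628 and 642 to 416 and 434 CPM (-0.58), and GPX2, a glutathione peroxidase of the glutathione supply group, from 373 and 380.2 to 70.9 and 71.7 CPM (-2.40). Of 37 members compared by dose, 10 had both 56 ug/mL libraries above the 4 others and 20 had both 280 ug/mL libraries above the 4 others, and 7 had neither. Of all 11230 genes tested that reached 5 CPM at any of the doses, 12.9% had the first pattern and 40.3% the second, so the pattern at 280 ug/mL was common across the transcriptome. The 10 were NQO1, TALDO1, ABCC3, AKR1B10, AKR1C1, AKR1C2, AKR1C3, UGDH, EPHX1 and GSTA1, and the 20 held KEAP1, BACH1, the small MAF genes, GCLM, SLC7A11, TXNRD1, SRXN1 and HMOX1. GSTA1 with GSTA2 and the AKR1C genes are near-identical copies, so reads may be shared within them. GSTA2, which is not on the list and was picked after its values were seen, was at 16.3 and 15.4 CPM at 11.2 ug/mL, 58.0 and 54.8 CPM at 56 ug/mL and 4.63 and 8.02 CPM at 280 ug/mL.

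**Figure D3:**
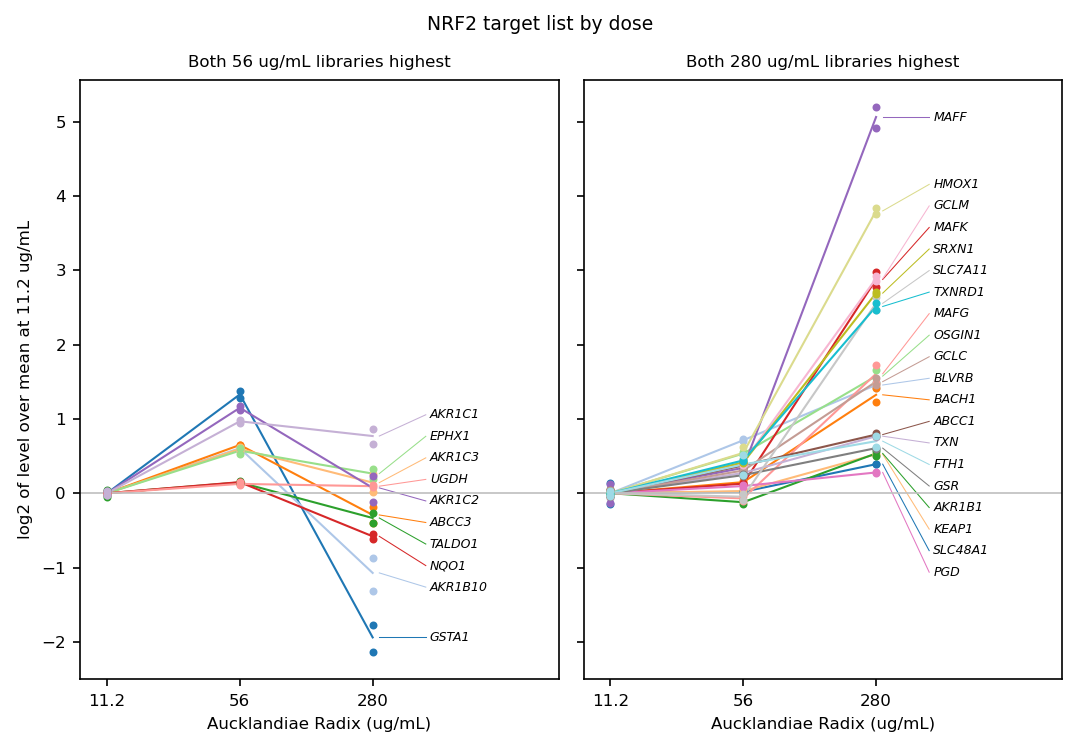
Log2 level over the 11.2 ug/mL mean (y axis) of 30 NRF2 targets at 11.2, 56 and 280 ug/mL (x axis), points for libraries and lines for means. The left panel holds the 10 genes whose 56 ug/mL libraries were both highest and the right panel the 20 whose 280 ug/mL libraries were both highest, from PGD at 0.28 to MAFF at 5.07.

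Metallothioneins, small proteins that bind zinc and copper, fell. All 7 tested members fell, 6 of them 2-fold or more. MT1G was at 65.2 and 62.0 CPM at 11.2 ug/mL, 47.1 and 43.7 CPM at 56 ug/mL and 7.22 and 7.44 CPM at 280 ug/mL (-3.12 ± 0.15, edgeR adjusted p = 3.04e-23), with a vehicle mean of 62.9 CPM. MT1X was at 36.7 and 35.6 CPM at 11.2 ug/mL, 28.6 and 26.7 CPM at 56 ug/mL and 7.05 and 7.53 CPM at 280 ug/mL (-2.31 ± 0.14), and MT1E and MT1F fell by 2.03 and 2.38. Neither high-dose library overlapped the low-dose ones for these 4 genes. A fall was common, with 35.5% of all tested genes called lower, and the share that fell without overlap is not given. MT2A fell by 0.32, from 199 and 201 to 173 and 147 CPM. The MT genes are close copies of each other, so single values are less certain than the common direction. SLC30A10, a manganese exporter of the zinc transporter family, fell from 16.1 and 14.2 to 1.04 and 1.49 CPM (-3.58), the zinc exporter SLC30A1 did not pass the test (0.13) but was called under 5 alternative settings at 0.13 to 0.27, and the zinc sensor MTF1 rose from 22.7 and 20.2 to 52.2 and 44.9 CPM (1.18). MT1X is shown because its window holds 4 metal response elements, searched as TGCACNC or TGCGCNC on both strands (chr16:56682270-56682469 on the plus strand, 200 bases before the start, RefSeq GRCh38.p14, matches in capitals).
MT1X: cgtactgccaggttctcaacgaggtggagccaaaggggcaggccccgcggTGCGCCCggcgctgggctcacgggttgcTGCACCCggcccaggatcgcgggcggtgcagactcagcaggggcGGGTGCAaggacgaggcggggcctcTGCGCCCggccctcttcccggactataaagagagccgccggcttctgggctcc
The list searched holds 9 metallothioneins and 4 zinc sensor or transporter genes, and MT1G, MT1E and MT1F had no promoter entry. The element was found for 6 of the 8 list genes with a promoter (75.0%), 44.8% of tested genes and 33.4% of all genes. The antioxidant response element was found for 5 of the same 8 (62.5%), against 19.3% of tested genes. Among all genes that fell 2-fold the share was 43.9%, the same as among those that rose 2-fold.

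Genes of the ATF4 response rose in the stress branch and split in the amino acid branch. Of 24 tested, 18 rose and 5 fell (median 1.12). PPP1R15A, which encodes the subunit that directs eIF2 dephosphorylation, went from 14.7 and 14.9 to 306 and 245 CPM (4.22 ± 0.10, edgeR adjusted p = 5.38e-34). GDF15, a secreted stress hormone, went from 102 and 104 to 808 and 747 CPM (2.91), SESN2, a leucine sensor, from 20.5 and 20.3 to 131 and 104 CPM, and DDIT3, the factor CHOP, from 7.49 and 8.84 to 27.7 and 25.8 CPM. All 8 factors of the list rose, with ATF4 itself at 301 and 288 CPM at 11.2 ug/mL and 424 and 384 CPM at 280 ug/mL (0.46). ASNS, asparagine synthetase, rose from 42.6 and 45.9 to 214 and 197 CPM (2.21). The serine and one-carbon enzymes SHMT2, PSPH and PHGDH fell, SHMT2 from 207 and 212 to 65.7 and 67.9 CPM (-1.65), so 3 of the 8 amino acid genes rose and 5 fell. The ASNS window (chr7:97872409-97872608 on the minus strand, RefSeq GRCh38.p14) is shown for its CEBP-ATF element, searched as TGATGNAA on both strands, in capitals. A heat shock element overlaps this match.
ASNS: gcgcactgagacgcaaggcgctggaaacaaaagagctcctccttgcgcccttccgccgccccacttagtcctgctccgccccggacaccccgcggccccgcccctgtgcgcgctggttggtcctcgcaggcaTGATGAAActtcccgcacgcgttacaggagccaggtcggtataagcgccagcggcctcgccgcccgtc
The element was found for 6 of 20 ATF4 list genes (30.0%), 2.81% of tested genes and 4.46% of all genes. Among all genes that rose 2-fold the share was 3.02%, and among those that fell 2-fold 3.66%.

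The endoplasmic reticulum response moved in both directions, 10 of 20 genes higher and 5 lower. ERN1, which encodes the sensor IRE1, went from 15.6 and 15.4 to 80.5 and 70.4 CPM (2.28), while XBP1, whose mRNA IRE1 splices, fell from 359.7 and 323 to 91.7 and 111 CPM (-1.75). HSPA5, the luminal chaperone BiP, rose by 1.21, and the disulfide isomerase PDIA4 fell by 1.03.

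Protein disposal genes rose. 24 of 34 proteasome genes rose, 1 fell (PSMD7, -0.22), and the median was 0.51. The rise was 0.72 in the median for the 19S cap, assembly and NFE2L1 genes and 0.30 for the 20S core. PSMD14, the cap's deubiquitinase, went from 87.8 and 86.7 to 197 and 189 CPM (1.15 ± 0.06), and the assembly factor POMP from 61.2 and 65.2 to 126 and 128 CPM. On the autophagy and ubiquitin list, 14 of 17 rose, 8 of them 2-fold or more. GABARAPL1 and MAP1LC3B, which coat autophagosome membranes, went from 7.03 and 7.05 to 122 and 105 CPM (4.01 ± 0.11) and from 85.5 and 85.6 to 922 and 823 CPM (3.35 ± 0.06). The cargo receptors SQSTM1 and OPTN rose by 1.91 and 2.03, and ZFAND2A, a proteasome partner, by 2.34. The high-dose and low-dose libraries did not overlap for any of these, as was common among all genes.

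Proliferation genes fell while several inhibitors of growth rose. Of 29 DNA replication genes, 26 fell and 2 rose (median -1.15), and of 24 mitosis genes, 22 fell and none rose (median -1). GINS1, part of the replicative helicase, went from 73.9 and 68.8 to 16.4 and 19.6 CPM (-1.99 ± 0.08), and the helicase subunits MCM2, MCM3 and MCM7 fell by 1.65, 1.65 and 1.5. TOP2A, topoisomerase II, went from 692 and 655 to 178 and 214 CPM (-1.78 ± 0.06) and the mitotic kinesin KIF20A from 87.0 and 87.3 to 22.9 and 28.9 CPM. The replication genes that rose were CCNE1 and CCNE2, the cyclins E of S-phase entry, at 1.03 and 0.53. Histone genes of the replication-dependent families went the other way: 8 of 10 tested rose, all 2-fold or more, with H2AC6 at 6.92 and 5.89 CPM at 11.2 ug/mL and 67.5 and 59.4 CPM at 280 ug/mL (3.30) and H2BC4 at 1.34 and 1.12 CPM at 11.2 ug/mL and 20.9 and 21.1 CPM at 280 ug/mL (4.08). Histone genes are close copies of each other and their counts depend on which transcripts carry a poly(A) tail, and neither point was tested. The MCM6 window (chr2:135876444-135876643 on the minus strand, RefSeq GRCh38.p14) holds 4 matches to the E2F element, searched as TTTGGCGC or TTTCGCGC on both strands, in capitals as 2 overlapping pairs.
MCM6: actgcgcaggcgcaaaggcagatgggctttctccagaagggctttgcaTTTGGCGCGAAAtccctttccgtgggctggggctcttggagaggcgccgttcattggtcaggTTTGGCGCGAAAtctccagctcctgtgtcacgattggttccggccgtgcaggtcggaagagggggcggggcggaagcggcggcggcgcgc
The element was found for 10 of 25 DNA replication genes (40.0%), 2.4% of tested genes and 1.4% of all genes. Among all genes that fell 2-fold the share was 2.47%, and among those that rose 2-fold 2.15%, both near that of tested genes. MCM6 itself fell from 66.0 and 64.3 to 26.8 and 29.9 CPM (-1.20).

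Of 22 p53 targets, 11 rose and 8 fell. CDKN1A, the cell cycle inhibitor p21, went from 67.6 and 66.0 to 311 and 288 CPM (2.16), and the growth arrest genes GADD45A and GADD45B from 27.4 and 26.0 to 130.3 and 105 CPM and from 2.69 and 3.78 to 81.1 and 60.1 CPM. The repair gene DDB2 and the death gene BAX, also p53 targets, fell by 0.90 and 0.61. Among 18 apoptosis regulators, 10 rose and 5 fell. Those that rose included both sides of the balance: PMAIP1 and BBC3, which encode the killers NOXA and PUMA, from 0.922 and 1.29 to 8.47 and 6.45 CPM and from 7.42 and 7.47 to 31.8 and 29.2 CPM, and MCL1, a survival protein, from 152 and 152 to 552 and 520.1 CPM.

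Hepatocyte transcription factors fell. 14 of 19 were lower, 11 of them 2-fold or more, and the median was -1.22. NR1H4, the bile acid receptor FXR, was at 50.6 and 51.5 CPM at 11.2 ug/mL, 62.4 and 60.6 CPM at 56 ug/mL and 5.47 and 7.53 CPM at 280 ug/mL (-2.97 ± 0.10, edgeR adjusted p = 1.64e-28). HNF4A, the central factor of hepatocyte identity, was at 348 and 347 CPM at 11.2 ug/mL, 344 and 343 CPM at 56 ug/mL and 104 and 133 CPM at 280 ug/mL (-1.55 ± 0.07). NR0B2, the repressor SHP and a target of FXR, fell from 31.8 and 30.6 to 6.38 and 7.98 CPM, NR1I2, the drug receptor PXR, from 15.8 and 16.7 to 2.42 and 3.89 CPM, and ONECUT1 and FOXA1 by 2.30 and 1.61. The high-dose libraries lay below the low-dose ones for each of these. Of all tested genes 35.5% were called lower, and the share with this pattern is not given. CEBPB, which is also on the ATF4 list, was the member that rose (1.31). Of 13 bile acid genes, 8 fell, among them AKR1D1, a bile acid synthesis enzyme (-1.49), and the phospholipid exporter ABCB4 (-1.49), while SLC51B, a subunit of a bile acid exporter, rose from 5.11 and 4.77 to 13.8 and 15.6 CPM. Of 11 genes on the drug metabolism list of PXR and CAR, 4 rose and 3 fell, NR1I2 among them. SULT2A1, a sulfotransferase, fell from 113 and 108 to 18 and 21.4 CPM (-2.49), while ALAS1, the first enzyme of heme synthesis, rose from 41.7 and 44.1 to 86.4 and 91.6 CPM (1.05) and the exporter ABCB1 from 66.0 and 63.2 to 120.5 and 115 CPM (0.87). The AHR target CYP1A1 rose by 0.69 but by 0.32 and not past the test (adjusted p = 0.0584) without high-dose replicate 3.

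Genes of secreted liver proteins fell with smaller medians. All 15 tested albumin and carrier protein genes were lower (median -0.62), 3 of them 2-fold or more. SERPINA7, thyroxine-binding globulin, fell from 128 and 129 to 36.0 and 37.9 CPM (-1.79), RBP4, the retinol carrier, by 0.66, and albumin (ALB) by 0.40, from 8272 and 8307 to 6433 and 6156 CPM. 21 of 24 coagulation and complement genes fell, led by the clotting factor F7 from 13.9 and 15.2 to 2.38 and 2.36 CPM (-2.62), and VTN, vitronectin, rose (0.36). HAMP, the iron hormone hepcidin, fell from 28.2 and 26.4 to 2.67 and 3.89 CPM (-3.06) and the hemoglobin scavenger HP by 1.47. APOB, the backbone of very low density lipoprotein, fell from 27090 and 26850 to 6038 and 6988 CPM (-2.05 ± 0.10), with a vehicle mean of 29020 CPM, and 12 of 16 lipoprotein genes fell. The sterol exporter ABCA1 fell from 161 and 161 to 38.3 and 49.6 CPM (-1.87).

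Genes of fatty acid synthesis were mostly lower, and cholesterol genes moved in both directions. 14 of 16 fatty acid synthesis genes were lower (median -1.01), led by GPAM, the first acyltransferase of triglyceride synthesis, from 182 and 176 to 17.5 and 30.1 CPM (-2.91 ± 0.11), MLXIPL, the glucose-sensing factor ChREBP, from 167 and 174 to 33.2 and 36.7 CPM (-2.28), and DGAT2, the last enzyme of that pathway, by 2.06. Of 27 cholesterol genes, 14 fell and 7 rose. ACAT2, which joins acetyl-CoA units at the start of the pathway, was at 234 and 244 CPM at 11.2 ug/mL, 228 and 242 CPM at 56 ug/mL and 71.7 and 75.6 CPM at 280 ug/mL (-1.70 ± 0.06), and LSS, which closes the sterol ring, fell from 288 and 293 to 108 and 104 CPM (-1.45 ± 0.06). CYP51A1, a sterol demethylase, rose from 279 and 286 to 489 and 436 CPM (0.71 ± 0.06). SREBF2, which encodes the pathway's factor SREBP2, did not pass the test (-0.03). FABP1, a fatty acid carrier, was at 97.3 and 112 CPM at 11.2 ug/mL, 46.5 and 54.2 CPM at 56 ug/mL and 12.3 and 11.9 CPM at 280 ug/mL, falling stepwise without overlap, with -1.06 ± 0.15 at the medium dose (edgeR adjusted p = 3.74e-06) and -3.12 ± 0.18 at the high dose. PLIN2, the lipid droplet coat, rose from 127 and 127 to 550.1 and 567 CPM (2.14) and ACSL1, which activates fatty acids, by 1.42, while the coactivator PPARGC1A fell from 22 and 22.3 to 4.88 and 5.17 CPM.

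Genes of energy and ribosomes were lower. 12 of the 13 mitochondrially encoded genes fell (median -0.95), led by MT-CO1, a subunit of cytochrome oxidase, from 21450 and 18710 to 5902 and 6503 CPM (-1.70 ± 0.11). 18 of 24 nuclear genes of the respiratory chain fell by less (median -0.44), with CYC1 and SDHA at -1.07 and -1.04. 21 of 23 ribosomal protein and elongation factor genes fell, none 2-fold (median -0.49), and 15 of 20 ribosome biogenesis genes fell. Ribosomal protein genes have many pseudogenes that can share their reads.

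Wnt targets fell in part. Of 14 tested, 9 fell, 8 of them 2-fold or more, and 2 rose. LGR5, a stem cell receptor that amplifies Wnt, went from 164 and 156 to 16.8 and 24.5 CPM (-2.95 ± 0.08), and NOTUM and DKK1, secreted Wnt inhibitors, fell by 1.88 and 1.77. AXIN2, a feedback inhibitor that is a standard Wnt reporter, rose by 0.18, from 132 and 134 to 154 and 149 CPM, and CTNNB1, beta-catenin, did not pass the test (-0.06). Among oncofetal liver genes, 9 of 12 fell and none rose, with PEG10 from 4125 and 4029 to 1296 and 1111 CPM (-1.76).

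Hypoxia genes moved in both directions, 9 higher and 7 lower of 18. ADM, the vasodilator adrenomedullin, went from 5.76 and 4.77 to 139.7 and 104 CPM (4.52 ± 0.11) and PFKFB3, a regulator of glycolysis, from 5.38 and 4.77 to 40.4 and 34.2 CPM (2.88). EPO, erythropoietin, fell from 5.76 and 7.09 to 0.334 and 0.372 CPM (-4.16 ± 0.24), and CA9, carbonic anhydrase 9, from 4.38 and 7.63 to 1.04 and 1.12 CPM (-2.46). Of 19 sphingolipid genes, 10 rose and 4 fell. SPTLC3, a subunit of serine palmitoyltransferase, the first enzyme of the pathway (chr20:13008979-13169103, GRCh38), was at 62.5 and 59.1 CPM at 11.2 ug/mL, 52.8 and 55.0 CPM at 56 ug/mL and 1.46 and 1.86 CPM at 280 ug/mL, with a vehicle mean of 60.6 CPM. The high-dose libraries lay far below the others (-5.19 ± 0.09, edgeR adjusted p = 1e-38), while SPTLC2, the alternative subunit, did not pass the test (0.09) and UGCG, which makes glucosylceramide, rose from 14.3 and 13.9 to 68.3 and 56.5 CPM (2.15). Tubulin genes also split, TUBB2A and TUBB6 higher at 2.54 and 2.46, TUBB and the gamma-tubulin gene TUBG1 lower at -1.43 and -1.52, with reads that close copies may share.

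Among protein-coding genes at 5 CPM or more in the higher group, the 12 highest log2 fold changes were those of HSPA6, CCL26, ARC, EID3, KPNA7, CA2, FOSB, THSD4, FOS, KLF4, HSPA1A and TNFSF9. EID3 went from 0.269 and 0.166 to 31.1 and 23.7 CPM (6.93 ± 0.30), KPNA7, an importin, from 0.0769 and 0.124 to 11.6 and 8.73 CPM, and CA2, carbonic anhydrase 2, from 0.115 and 0.0415 to 7.80 and 7.40 CPM. TNFSF9, the ligand of the T-cell receptor 4-1BB, went from 0.922 and 0.996 to 46.1 and 40.0 CPM (5.48 ± 0.21). THSD4 (6.01) has an antisense neighbour, and the strand setting of the counting is not given in the sources used here. Among the 12 lowest were CDRT4, SPTLC3, SLC6A14, SCN1A, TRIM50, TJP3, EPO, ANGPTL8, UBD, ACSM2A and ANGPTL1. SLC6A14, an amino acid carrier, was at 39.9 and 37.7 CPM at 11.2 ug/mL, 18.3 and 20.2 CPM at 56 ug/mL and 1.42 and 1.16 CPM at 280 ug/mL (-4.91 ± 0.16), a stepwise fall without overlap. SCN1A, a sodium channel subunit with an antisense partner, was at 32.2 and 34.2 CPM at 11.2 ug/mL, 17.1 and 20.5 CPM at 56 ug/mL and 1.00 and 1.32 CPM at 280 ug/mL (-4.83 ± 0.14). TJP3, a tight junction protein, fell from 7.26 and 7.63 to 0.292 and 0.372 CPM, and ANGPTL8, a regulator of lipoprotein lipase, from 8.19 and 9.13 to 0.250 and 0.703 CPM. CDRT4 fell from 8.76 and 2.57 to 0.0834 and 0.124 CPM (-5.72 ± 1.15), its low-dose libraries far apart, and it overlaps TVP23C and a read-through gene. UBD and ANGPTL8 overlap other genes too, and ACSM2A has a close copy. Leaving out 1 library moved the fold of 5 of the 23 genes named here by over 1.5 times with all still called: CDRT4 was at -4.57 without low-dose replicate 2 and -6.34 without low-dose replicate 3, and ACSM2A at -3.34 and -5.62 without high-dose replicates 2 and 3. ANGPTL8 was at -5.09 without high-dose replicate 3, CA2 at 7.34 without low-dose replicate 2, and HSPA6 at 12.12 and 15.31 without low-dose replicates 2 and 3.

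At 56 ug/mL the genes called at 2-fold included detoxification enzymes such as GSTA1 and AKR1C2, and FABP1 and SLC6A14 among those that fell. PTGR1, a prostaglandin reductase that was picked after its values were seen, was at 26.2 and 27.6 CPM at 11.2 ug/mL, 76.3 and 70.5 CPM at 56 ug/mL and 135 and 144 CPM at 280 ug/mL, rising stepwise without overlap (1.45 ± 0.06 at the medium dose, edgeR adjusted p = 1.5e-21). CYP19A1, aromatase, picked in the same way, was at 8.91 and 8.21 CPM at 11.2 ug/mL, 18.7 and 17.8 CPM at 56 ug/mL and 9.85 and 11.7 CPM at 280 ug/mL, highest in both medium libraries. The count at 56 ug/mL moved with the settings: 35 genes at 2-fold with all libraries became 20 without medium-dose replicate 2 and 22 without low-dose replicate 3.

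The dose response was compared with that of Polygalae Radix, the other extract of the same set and the other whose high dose was set by inhibition (250 against 10 ug/mL, 2 libraries a dose). The doses differ, so the test compares the steps that were given. Of 16982 genes, 10202 (60.1%) differed in their change, 5324 (31.4%) with Aucklandiae Radix higher and 4878 (28.7%) with it lower, and the median difference was 0.043. For heat shock genes, 27 of 29 had a higher change with Aucklandiae Radix and 2 a lower one (median difference 2.06). HSPA1A averaged 31.5 CPM at the high and 71.8 CPM at the low dose of Polygalae Radix, a direction opposite to that with Aucklandiae Radix, and the difference was 6.87 ± 0.18 (SE, edgeR adjusted p = 4.46e-32). The proteasome list had 33 of 34 genes higher and none lower, the ATF4 list 19 of 24 higher, and autophagy and ubiquitin 15 of 17 higher. A difference holds the changes with both extracts. The median difference of the proteasome list was 1.09, while its median change with Aucklandiae Radix alone was 0.51. For heat shock genes that change was 1.25, so the differences of both lists are not a rise with Aucklandiae Radix alone. Albumin and carrier genes, which fell with Aucklandiae Radix, had 15 of 15 members higher in the difference, as did 16 of 24 coagulation genes. Hepatocyte transcription factors differed the other way, 16 of 19 lower (median -1.34), and so did 12 of 13 mitochondrially encoded genes. SLC6A14 averaged 51.1 and 40.0 CPM at the high and low dose of Polygalae Radix, so that the difference was -5.26 ± 0.19. Immediate early genes were less uniform, 15 higher and 4 lower of 23.

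**Figure D4:**
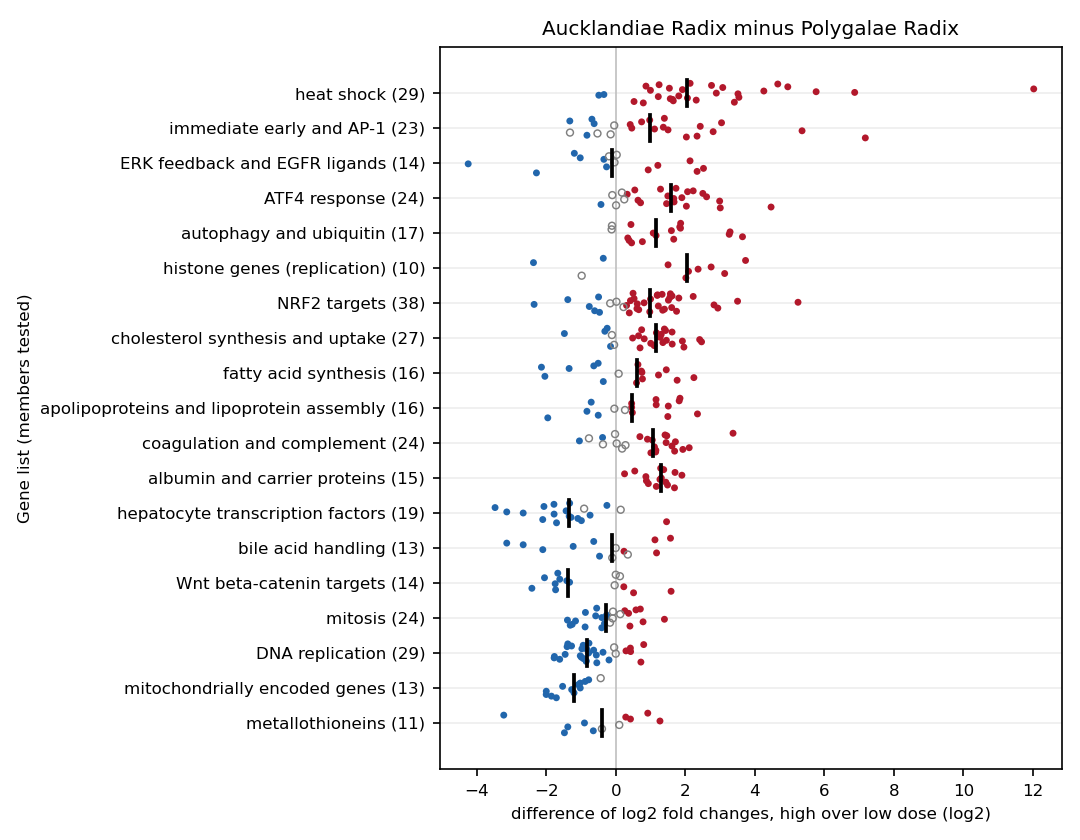
Difference between the log2 fold changes, high over low dose, of Aucklandiae Radix and Polygalae Radix (x axis) for every tested member of 19 gene lists (y axis, number tested in brackets). Filled red points were called with Aucklandiae Radix higher and filled blue points lower, open points were not called, and black bars are medians, 2.06 for heat shock and -1.34 for hepatocyte transcription factors.

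The other comparison was with an ethanol extract of Guibi-tang, a formula of several herbs, from another set at 500 against 20 ug/mL (3 libraries a dose). Here 9933 genes (58.5%) differed in their change, with a median difference of -0.017 over all genes. The herbs of the formula were not looked up, so it may share herbs with the extract described here. A difference in change can also hold a move in the same direction with both. GCLM averaged 91.6 CPM at the high and 40.9 CPM at the low dose of Guibi-tang, and SLC6A14 13.6 and 43.7 CPM. Both were picked after their values were seen, and genes moving the same way were not counted. The heat shock list had a median difference of 1.33. HSPA1A averaged 70.6 CPM at the high and 92.0 CPM at the low dose of Guibi-tang, and SPTLC3 averaged 42.9 and 66.3 CPM, with a difference of -4.56 ± 0.11 (SE, edgeR adjusted p = 3.44e-33).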

How the data were processed

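Gene expression was measured by RNA sequencing in the libraries described above. The authors made the libraries with a directional kit, per the labels' protocols, as 100 bp reads. Per the submitters' processing notes, the tools included FastQC 0.11.9, Trim Galore 0.6.5, STAR 2.7.3a and RSEM 1.3.3 with GRCh38. Neither the release of the annotation nor the strand option is named in the sources used here. The values the authors deposited are RSEM expected counts per gene, not normalized. Of these values 9.97% were not whole, and they were rounded. GENCODE 29 gave symbols and coordinates for 57055 of 60675 gene IDs.

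The test was the quasi-likelihood test of edgeR 4.0.16 (R 4.3.3), with TMM scaling and filterByExpr with a minimum count of 10. The fit held 57 libraries in 22 groups (35 residual degrees of freedom, coefficient of variation 4.65%), which share 1 estimate of the spread. The extract with 1 library a dose was left out. Adjusted p-values under 0.05 were called over all 16982 tested genes, and 2-fold means an absolute log2 fold change of at least 1. CPM values are TMM-scaled and not divided by gene length, so they are compared within a gene. A floor of 3 counts was 0.119 CPM per library at the low dose, and intervals and floors cover counting error only. Standard errors were derived from the edgeR contrasts, as the absolute log2 fold change over the square root of the quasi-likelihood F statistic. They are approximate, and unreliable where a group is near 0 counts. The script was tested on simulated counts.

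The lists, comparisons and rules were chosen with earlier results of these data known. Named genes were the 12 highest and 12 lowest called protein-coding genes reaching 5 CPM in the higher group with no overlap of libraries, up to 5 called members of each list with the largest changes and at least 5 CPM, the factor or sensor genes of the lists, and the 5 highest and 5 lowest genes in each difference between extracts. Other list members named here were picked after their values were seen. Several genes that these rules name are not reported here. Replicates of a dose differed by more than counting noise (chi-square per gene 3.37 or more). Promoter windows are from RefSeq (GRCh38.p14, 35116 entries for 27305 genes). Several genes have several starts, and a gene counts once if any of its windows holds the motif. Alternatives were DESeq2 1.42.0, RLE scaling, library totals, no filter, a mean of 1 CPM, a fit restricted to the compared groups, a replicate block, a fit without the trend with GC content and length, glmTreat, and each library left out in turn.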

Additional observations from a re-analysis of the deposited data

Results flagged for a closer look

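The genes below had the largest differences in dose response between Aucklandiae Radix and another extract, by an edgeR test of the difference between both high-low changes on the log2 scale, among genes changed 2-fold by Aucklandiae Radix. No explanation was tested for any of them.

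Against Polygalae Radix (250 against 10 ug/mL), the change with Aucklandiae Radix was higher by 12.02 for HSPA6 (edgeR adjusted p = 0.0251), 7.18 for ARC, 6.87 for HSPA1A, 6.02 for KPNA7 and 5.98 for RGMA. RGMA, a guidance molecule and BMP co-receptor, went from 0.346 and 0.249 CPM at 11.2 ug/mL to 9.93 and 9.26 CPM at 280 ug/mL, and averaged 0.476 and 0.232 CPM at the low and high dose of Polygalae Radix. HSPA6 was near 0 counts in every other group used here, so the size of its difference depends on the prior count. The differences of HSPA6 and ARC were 9.92 and 5.83 and no longer past the threshold without Polygalae Radix low-dose replicate 3. The change was lower by the following log2 differences: -5.26 for SLC6A14, -5.22 for MSI1, -4.18 for ANGPTL8, -3.94 for TCIM and -3.87 for CDRT4. SLC6A14, MSI1 and TCIM moved in opposite directions: TCIM averaged 18.3 and 74.7 CPM at the low and high dose of Polygalae Radix and had 17.0 and 16.7 and then 4.05 and 4.84 CPM with Aucklandiae Radix. MSI1, an RNA-binding protein of progenitor cells, averaged 0.639 and 5.34 CPM with Polygalae Radix and had 0.884 and 0.830 and then 0.250 and 0.124 CPM with Aucklandiae Radix. The difference of CDRT4 was not past the threshold without any 1 of 5 libraries, at -1.57 without Polygalae Radix high-dose replicate 3, and at -3.89 (adjusted p = 0.0501) with a replicate block.

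Against Guibi-tang (500 against 20 ug/mL), the change was higher by 12.88 for HSPA6, 10.18 for CCL26, 7.38 for RGMA, 7.21 for ARC and 6.27 for KPNA7. The lower ones were -5.85 for CDRT4, -5.14 for TRIM50, -4.56 for SPTLC3 and -4.49 for EPO. TRIM50 averaged 15.2 and 19.9 CPM at the low and high dose of Guibi-tang, against 13.8 and 14.4 and then 0.626 and 0.414 CPM with Aucklandiae Radix. EPO averaged 6.26 and 7.88 CPM with Guibi-tang. HSPA6 and CCL26 were at 11.12 and 8.41 and not past the threshold without Guibi-tang low-dose replicates 3 and 2 respectively.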

How the results depend on the processing

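The count called between 280 and 11.2 ug/mL was 10311 to 12004 over all alternatives. None of the 4721 genes at 2-fold was called at 2-fold in the other direction under the refits. Opposite calls below 2-fold were not counted. Genes at 2-fold became 2903 (1495 higher, 1408 lower) when glmTreat tested against 2-fold itself, and 1536 were higher with a mean of 1 CPM, which tests fewer genes. With library totals in place of TMM, the median over all genes was 0.117 in place of -0.015, and 6719 of the called genes were higher and 5101 lower. With the replicate block 11856 genes were called, and 4688 of the 4721 kept their 2-fold call. The replicate numbers gave no pairing, with correlations of deviations between doses of -0.0233 to 0.0266. All titles carry BatchD, and the sample codes share a set and replicate number across doses. The labels do not say that a replicate number stands for a batch. Without the GC and length trend 11992 genes were called.

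The count of 35 at 56 ug/mL (20 higher, 15 lower) was 22 with DESeq2 (10 higher), 110 with no filter (52 higher, 58 lower), 22 with a mean of 1 CPM (9 higher) and 2 with glmTreat (2 higher, 0 lower). Leaving out 1 library gave 20 to 29 genes, 11 to 16 higher and 7 to 13 lower. With a mean of 1 CPM, which tests fewer members, list medians turned sign to 0.016 for fatty acid oxidation, 0.676 for endothelial markers and -1.98 for lung and gut markers. Medians near 0 also changed sign: that of PXR and CAR genes (-0.045) was 0.007 to 0.269 under 6 settings, and that of FOXO and insulin genes (-0.020) was 0.015 to 0.116 under 4. Of 237 named genes, 5 values lost and 18 gained a call under single alternatives, none turned direction while called, and the cause was not tested. Depth limits genes near the 3-count floor, and 2 libraries a dose limit all p-values.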

Other observations

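The gene lists below moved in both directions. Called members were 10 of 12 in the FOXO and insulin list and 9 of 12 in the ferroptosis list, against 69.4% of all tested genes. Of 12 genes regulated by FOXO, insulin or glucose, 4 rose and 6 fell between 11.2 and 280 ug/mL (edgeR, adjusted p under 0.05). TXNIP, a glucose-induced inhibitor of thioredoxin, fell from 34.1 and 38.8 to 12.6 and 13.1 CPM (-1.50 ± 0.11), and PCK2, the mitochondrial PEP carboxykinase and a known ATF4 target, from 172 and 185 to 63.1 and 67.9 CPM (-1.45). IGFBP1, a secreted binder of insulin-like growth factors, rose from 45.7 and 53.9 to 89.4 and 116 CPM, and IRS2, an adaptor of the insulin receptor, from 0.192 and 0.166 to 3.71 and 4.01 CPM (4.39 ± 0.46). IRS2 was picked after its values were seen.

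Of 12 ferroptosis-linked genes, 5 rose and 4 fell. ACSL4, which loads membranes with oxidisable fatty acids, fell from 612 and 619 to 222 and 243 CPM (-1.41 ± 0.07). SAT1, the first enzyme of polyamine breakdown, rose from 96.0 and 95.5 to 371 and 378 CPM (1.97 ± 0.06), and SLC40A1, the iron exporter ferroportin, from 68.2 and 68.3 to 116 and 119 CPM (0.78). The high-dose and low-dose libraries did not overlap for any of these 3 genes, which were named for their changes, and such separation was common among all genes.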
